A study of Mus musculus with 12 samples.

Results

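Caspases, gasdermin D and the kinases of necroptosis carry out programmed cell death, and 8 of these genes (Casp1, Casp4, Casp8, Casp9, Gsdmd, Mlkl, Ripk1 and Ripk3) were followed through interferon-γ (IFN-γ) exposure in a lymphoma line. They were found by symbol among the 53379 gene identifiers of the deposited count table, each at 1 identifier. All 8 passed the filter on low counts and were among the 14299 genes tested. The cells were 1 Eµ-myc line, a B cell lymphoma of C57BL/6 mice in which an immunoglobulin heavy chain enhancer drives the Myc oncogene. There were 4 groups of 3 samples. One group was labelled unstimulated. The other groups received recombinant mouse IFN-γ at 5 ng/mL for 1 h, 6 h or 24 h, and stimulation was blocked at the earlier times with a neutralising anti-IFN-γ antibody at 50 µg/mL. Cells were collected at 24 h post stimulation, so the 1 h and 6 h groups show what was left at harvest after the cytokine was blocked. Nothing in the labels tells separate cultures from repeat samples within a group, so p-values measure only the spread between these samples. The labels also leave out whether unstimulated or 24 h cells received antibody, so exposure and antibody cannot be told apart in comparisons with those groups.

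Library totals ran from 49440358 to 67096610 counts. The first principal component, with 44.1% of the variance, set the 24 h libraries apart from the other 9. The second, with 7.84%, set the third 6 h library apart from the other 11, and the values of the 6 h group that moved without it are given below. Levels are given in CPM, a gene's count scaled to the library total after TMM normalisation. The 5 B cell markers Cd79a, Cd79b, Ms4a1, Cd22 and Pax5 summed to between 1482 and 1526 CPM in 24 h libraries and between 1618 and 1637 CPM in unstimulated libraries, lower at 24 h without overlap. Among them Pax5 averaged 493 ± 17.1 CPM in 24 h cells and 612 ± 20.9 CPM in unstimulated cells, Cd79a 343 ± 21.1 and 382 ± 9.11 CPM, and Cd79b 333 ± 4.51 and 353 ± 17.0 CPM (SD, n = 3 each). Cd22 averaged 316 ± 5.36 CPM in 24 h cells and 274 ± 6.56 CPM in unstimulated cells, and Ms4a1 12.96 ± 1.27 and 8.57 ± 0.968 CPM, both higher at 24 h. The part of these shifts in the results below was not tested. Macrophages express several of the death genes, so 6 myeloid markers were checked. They summed to between 5.31 and 6.17 CPM in 24 h libraries and between 5.74 and 7.01 CPM in unstimulated libraries. Most of these counts came from Cd68, with 781 over the 24 h libraries and 748 over the unstimulated libraries, and Itgam, with 227 and 280. Lyz2, which macrophages express strongly, had 6 counts over the 24 h libraries and 8 over the unstimulated libraries. Adgre1 had 10 and 0, Csf1r 28 and 22, and Cd14 6 and 4. The T cell, NK cell and erythroid markers Cd4, Cd8a, Ncr1, Nkg7, Gzma and Alas2 were at 0 counts in every library. Other markers on these lists had counts. Cd3g had 165 over the 24 h libraries and 115 over the unstimulated libraries, Cd3d 13 and 18, Klrb1c 10 and 22, and Hba-a1 2 and 6. The sums in any library were at most 1.25 CPM for the 6 T cell markers, 0.241 CPM for the 4 NK cell markers and 0.187 CPM for the 4 erythroid markers.

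In pyroptosis, inflammatory caspases cut gasdermin D, whose freed amino-terminal part opens pores in the plasma membrane. In necroptosis, the kinase RIPK3 phosphorylates the pseudokinase MLKL, which then breaks the membrane, and caspase-8 holds this route in check by cutting RIPK1 and RIPK3. In apoptosis, caspase-8 is the initiator below death receptors and caspase-9 the initiator on the mitochondrial route. IFN-γ is known to act on genes through GAS elements and through ISRE elements, which interferon regulatory factors bind.

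Promoter windows from RefSeq covered 250 bases before to 50 after a start listed there, on GRCm38.p6. They were available for 7 of the 8 genes, in 9 windows, and Gsdmd had none. Both strands were searched for the GAS letters TTCNNNGAA and the ISRE letters (GAAA, any 2 bases, GAAA), and for the shorter interferon regulatory factor core AANNGAAA, which was chosen after the letters had been seen and which overlaps the ISRE letters. Of 32851 windows of the same length, 8.3% held TTCNNNGAA, 3.44% held the ISRE letters and 23.9% held AANNGAAA. The downstream of the 2 Ripk1 windows held TTCNNNGAA at 2 places and the ISRE letters at 1, the second GAS match overlapping the ISRE match. This Ripk1 window lies inside the gene, downstream of the annotated gene start at 34002363. Serpinb6a on the opposite strand, annotated from 33917918 to 34002794, reaches into the same window. Both Casp4 windows, which overlap each other, held AANNGAAA at 2 places on the reverse strand. The Casp8 window held AANNGAAA at 1 place on each strand. That window, chr1:58802252-58802551, lies inside the gene, downstream of the annotated gene start at 58795374. The windows of Casp1, Mlkl, Casp9 and Ripk3, and the upstream Ripk1 window, held none of these letters. The 4 windows printed here belong to the genes with the 3 largest rises that have a window and to the gene whose window holds the GAS and ISRE letters; capitals mark the matches.
Ripk1, chr13:34002624-34002923, plus strand: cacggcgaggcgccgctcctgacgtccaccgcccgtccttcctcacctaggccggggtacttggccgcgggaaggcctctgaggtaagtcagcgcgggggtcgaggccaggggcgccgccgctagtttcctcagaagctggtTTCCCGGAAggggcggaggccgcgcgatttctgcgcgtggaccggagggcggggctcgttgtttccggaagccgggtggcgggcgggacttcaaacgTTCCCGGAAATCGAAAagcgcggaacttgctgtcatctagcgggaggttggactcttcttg
Casp4, chr9:5308599-5308898, plus strand: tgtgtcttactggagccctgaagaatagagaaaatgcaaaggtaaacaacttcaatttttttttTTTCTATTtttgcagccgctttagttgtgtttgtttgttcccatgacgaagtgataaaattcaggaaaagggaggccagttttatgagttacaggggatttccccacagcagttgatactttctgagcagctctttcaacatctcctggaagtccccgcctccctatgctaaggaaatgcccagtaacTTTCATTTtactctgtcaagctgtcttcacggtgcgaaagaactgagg
Mlkl, chr8:111338156-111338455, minus strand: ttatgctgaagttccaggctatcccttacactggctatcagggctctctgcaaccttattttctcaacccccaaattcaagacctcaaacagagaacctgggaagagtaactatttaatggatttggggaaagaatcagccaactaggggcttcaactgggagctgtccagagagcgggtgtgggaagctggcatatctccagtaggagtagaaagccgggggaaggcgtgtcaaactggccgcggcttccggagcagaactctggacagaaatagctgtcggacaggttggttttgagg
Casp1, chr9:5298267-5298566, plus strand: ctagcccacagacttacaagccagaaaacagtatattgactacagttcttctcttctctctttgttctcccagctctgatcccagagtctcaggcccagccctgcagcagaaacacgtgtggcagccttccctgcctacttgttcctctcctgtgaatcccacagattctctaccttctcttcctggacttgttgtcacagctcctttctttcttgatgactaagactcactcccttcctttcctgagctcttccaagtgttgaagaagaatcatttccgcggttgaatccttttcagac

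After the full 24 h exposure, 5 of the 8 genes rose and 1 fell against unstimulated cells. The pyroptosis genes Casp1, Casp4 and Gsdmd and the necroptosis effector Mlkl rose by 1.53-fold to 3.70-fold, Ripk1 rose by 1.13-fold, and Casp9 fell to 0.860 of its unstimulated level. Casp8 and Ripk3 were not called. A call is an edgeR quasi-likelihood p under 0.05 after Benjamini-Hochberg adjustment across the 14299 genes. Of these, 18.7% were called, 10.3% as higher and 8.35% as lower. The median log2 fold change was 0.40 over the 8 genes and -0.0028 over all genes tested. The 24 h and unstimulated libraries did not overlap for 7 of the 8 genes, as for 34.1% of all genes tested.

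**Figure D1:**
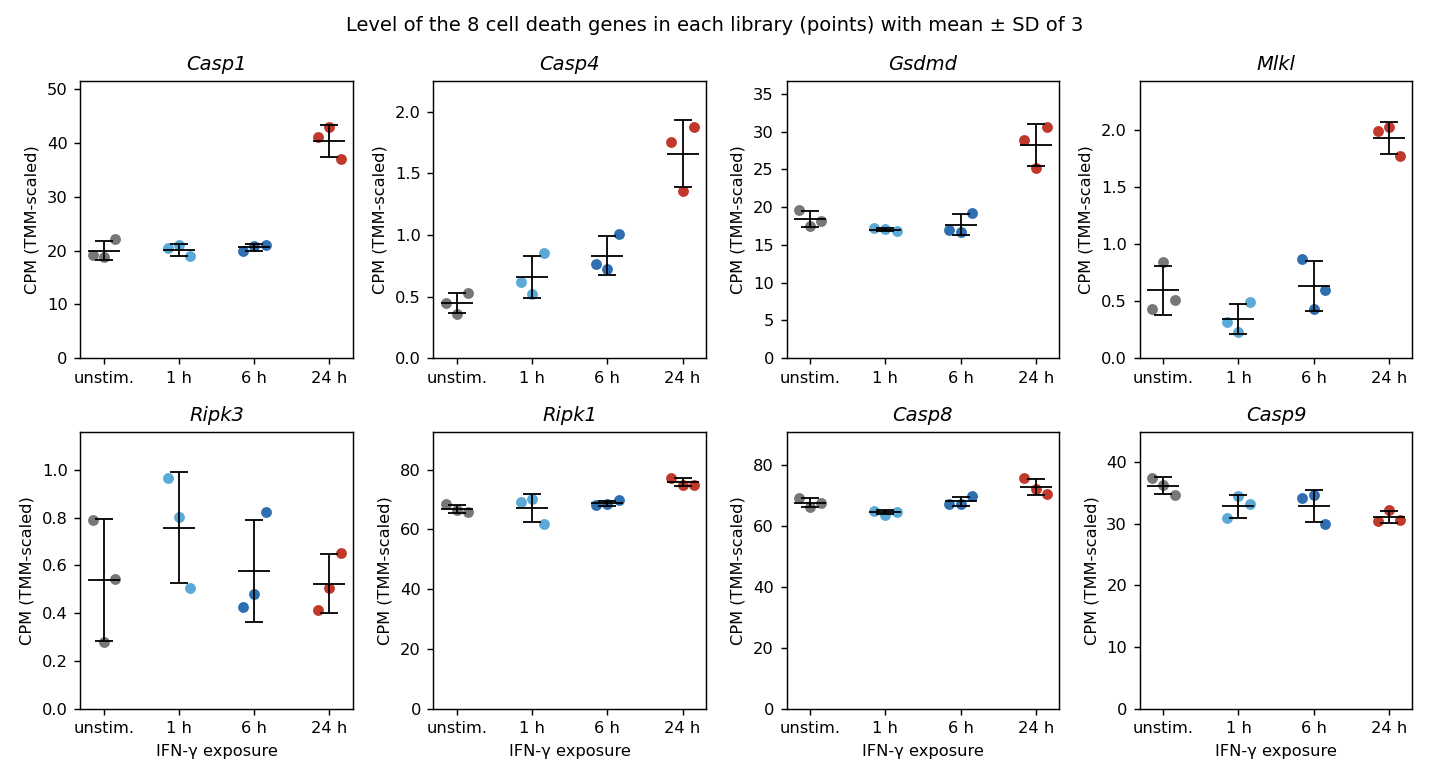
Level of each gene in CPM (TMM-scaled, linear axis from 0) in every library, by IFN-γ exposure; points are libraries and bars the mean ± SD of 3. The 24 h libraries lie above all others for Casp1, Casp4, Gsdmd and Mlkl, at 37.1 to 42.9, 1.36 to 1.87, 25.2 to 30.6 and 1.77 to 2.02 CPM. They also lie above all others for Ripk1 and Casp8, at 75.0 to 77.2 and 70.5 to 75.7 CPM, while those of Ripk3 lie among the rest.

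Casp1 (ENSMUSG00000025888.5, GRCm38 chromosome 9, 5298517 to 5307265) encodes the inflammatory caspase that inflammasomes activate and that matures interleukin precursors. Its level was 41.1, 42.9 and 37.1 CPM in the 24 h libraries, against 19.1, 18.8 and 22.1 CPM in the unstimulated libraries. Every 24 h library lay well above every unstimulated one. The fold change was 2.02 (95% interval 1.82 to 2.23), or 1.01 ± 0.07 on the log2 scale (± SE, edgeR adjusted p = 4.43e-12). After exposure had been blocked, the level was 20.5, 21.1 and 18.9 CPM in 1 h libraries and 19.9, 20.9 and 21.04 CPM in 6 h libraries. These values lay within the range of the unstimulated libraries.

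Casp4 (ENSMUSG00000033538.13, chromosome 9, 5308828 to 5336783) lies just downstream of Casp1 on the same strand and encodes the caspase that senses cytosolic lipopolysaccharide. It had few counts, 102, 75 and 126 in the 24 h libraries, or 1.75, 1.36 and 1.87 CPM. The unstimulated libraries held 25, 18 and 31 counts, or 0.449, 0.361 and 0.526 CPM. The groups did not overlap, and the fold change of 3.70 was the largest of the 8 genes, with a 95% interval of 2.49 to 5.51 (log2 fold change 1.89 ± 0.28, edgeR adjusted p = 8.83e-06). In the blocked groups Casp4 stood at 0.660 ± 0.170 CPM after 1 h and 0.832 ± 0.156 CPM after 6 h (SD, n = 3 each). The 6 h libraries, at 0.763, 0.722 and 1.01 CPM, all lay above the unstimulated ones, and those of 1 h overlapped them. The log2 fold change against unstimulated cells was 0.89 ± 0.29 after 6 h, which did not pass the adjustment over all genes (edgeR adjusted p = 0.136). Without the third 6 h library it was 0.72.

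Gsdmd (ENSMUSG00000022575.4, chromosome 15, 75862327 to 75867408), which encodes the pore-forming substrate of these caspases, had 28.9, 25.2 and 30.6 CPM in 24 h libraries, against 19.6, 17.5 and 18.2 CPM in unstimulated libraries. The lowest 24 h library exceeded the highest unstimulated one. The fold change was 1.53 (95% interval 1.38 to 1.71), a log2 fold change of 0.62 ± 0.08 (edgeR adjusted p = 3.62e-07). Gsdmd averaged 17.0 ± 0.146 CPM in 1 h cells and 17.7 ± 1.35 CPM in 6 h cells, against 18.4 ± 1.08 CPM in unstimulated cells (SD, n = 3 each). Neither blocked group was called.

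Mlkl (ENSMUSG00000012519.14, chromosome 8, 111311797 to 111338177, minus strand), the membrane-breaking effector of necroptosis, had 116, 112 and 119 counts in the 24 h libraries, or 1.99, 2.02 and 1.77 CPM. The unstimulated libraries held 24, 42 and 30 counts, or 0.431, 0.841 and 0.509 CPM. All 24 h libraries were higher, and the fold change was 3.26 (95% interval 2.13 to 5.00; log2 fold change 1.71 ± 0.30, edgeR adjusted p = 0.000108). The 1 h group had the lowest mean of the 4 groups, with 0.316, 0.234 and 0.490 CPM, and the 6 h group had 0.869, 0.430 and 0.599 CPM. Against unstimulated cells the 1 h value was -0.76 ± 0.35 on the log2 scale, with overlapping groups (edgeR adjusted p = 0.497).

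Ripk3 (ENSMUSG00000022221.14, chromosome 14, 55784995 to 55788865, minus strand), the kinase that activates MLKL, had few counts in every group. The 24 h libraries had 24, 28 and 44 counts (0.412, 0.506 and 0.654 CPM), against 44, 14 and 32 counts (0.791, 0.280 and 0.543 CPM) in unstimulated libraries. The groups overlapped, with a log2 fold change of -0.04 ± 0.38 (edgeR adjusted p = 0.958). The 95% interval of the fold change, without adjustment over all genes, ran from 0.567 to 1.66. Changes within that range were not excluded at these counts. The 1 h libraries had 0.967, 0.801 and 0.506 CPM and the 6 h libraries 0.426, 0.481 and 0.824 CPM, both overlapping the unstimulated ones. Against unstimulated cells the 6 h change was 0.08 ± 0.38 on the log2 scale, and -0.26 without the third 6 h library, called in neither.

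Ripk1 (ENSMUSG00000021408.15, chromosome 13, 34002363 to 34037147), the kinase and scaffold above both apoptosis and necroptosis, had 77.2, 75.0 and 75.0 CPM in 24 h libraries, against 68.3, 66.3 and 65.7 CPM in unstimulated libraries. The groups were separate but close, at a fold change of 1.13 (95% interval 1.06 to 1.22; log2 fold change 0.18 ± 0.05, edgeR adjusted p = 0.00924). The 1 h libraries had 69.3, 70.1 and 61.7 CPM and the 6 h libraries 68.0, 68.6 and 69.7 CPM. Ripk1 shares exonic sequence with Serpinb6a on the opposite strand, which averaged 2.41 ± 0.492 CPM in 24 h cells and 3.34 ± 0.183 CPM in unstimulated cells (SD, n = 3 each). The strand setting of the counting is not given in the sources used here. Exonic sequence of Ripk1 is also shared with the processed pseudogene Gm17084 on the same strand, which had 0 counts in every group.

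Casp8 (ENSMUSG00000026029.14, chromosome 1, 58795374 to 58847503) encodes the caspase that starts death receptor apoptosis and restrains necroptosis. It had 75.7, 72.1 and 70.5 CPM in 24 h libraries, against 69.1, 66.0 and 67.6 CPM in unstimulated libraries. The groups did not overlap, yet the fold change of 1.08 (95% interval 1.01 to 1.15) did not pass over all genes (log2 fold change 0.11 ± 0.05, edgeR adjusted p = 0.108). The 1 h libraries had the lowest values, 64.9, 63.6 and 64.6 CPM, and the 6 h libraries had 67.0, 67.1 and 69.8 CPM.

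Casp9 (ENSMUSG00000028914.13, chromosome 4, 141793612 to 141815976), the caspase of the apoptosome, was the 1 gene of the 8 that fell. It had 30.4, 32.2 and 30.6 CPM in 24 h libraries, against 37.4, 36.3 and 34.7 CPM in unstimulated libraries. The groups were separate, and the level fell by 0.22 on the log2 scale (SE 0.06, edgeR adjusted p = 0.0143). The call was lost without the first unstimulated library (adjusted p = 0.0878) or the first 24 h library (adjusted p = 0.0646). Both blocked groups also lay below every unstimulated library, with 30.8, 34.4 and 33.1 CPM after 1 h and 34.2, 34.6 and 29.9 CPM after 6 h. Neither was called, at -0.14 ± 0.06 after 1 h (edgeR adjusted p = 0.489) and -0.13 ± 0.06 after 6 h (edgeR adjusted p = 0.335). Without the third 6 h library, which had the lowest of these values, the 6 h change was -0.07. Casp9 overlaps exons of Ctrc and Cela2a on the opposite strand, and both had 0 counts in all libraries.

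**Figure D2:**
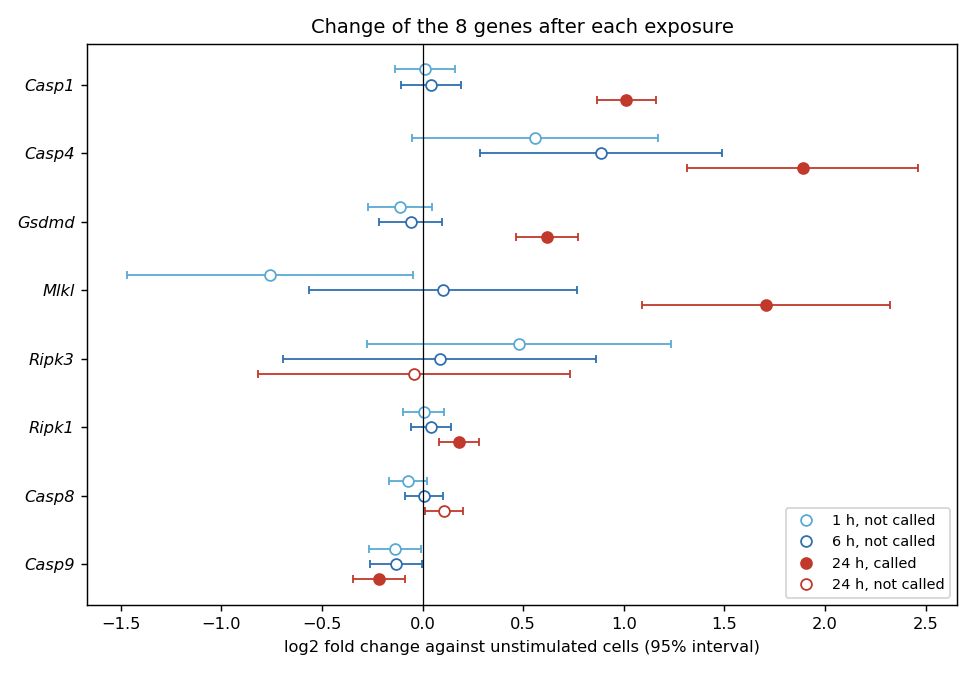
Log2 fold change of each gene against unstimulated cells after 1 h, 6 h and 24 h of exposure (points) with the 95% interval of the fit; filled points passed an adjusted p under 0.05. Filled points appear at 24 h only, for Casp1, Casp4, Gsdmd, Mlkl, Ripk1 and Casp9, and the widest intervals belong to the genes with few counts, such as Ripk3 at 24 h (-0.82 to 0.73).

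Exposures blocked at 1 h or 6 h left no called change in the 8 genes. By edgeR 0 of 8 were called after 6 h, where 1.59% of all genes were called (1.17% higher and 0.427% lower), and DESeq2 also called 0. Casp4 and Casp9 had an unadjusted p under 0.05 (0.00534 and 0.0426), and their libraries did not overlap those of unstimulated cells, as for 16.8% of all genes. After 1 h edgeR and DESeq2 called 0 of 8, where edgeR called 0.42% of all genes (0.273% higher and 0.147% lower). Casp9 and Mlkl had an unadjusted p under 0.05 (0.0358 and 0.0371), and Casp8, Casp9 and Gsdmd did not overlap unstimulated cells and lay below them, as 14.8% of genes did not overlap in either direction. The median log2 fold change of the 8 genes was 0.04 after 6 h and -0.03 after 1 h. Without the third 6 h library the 6 h median was 0.0046, and over all genes 531 were called after 6 h in place of 228.

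The 24 h libraries were also set directly against the blocked groups. Against 6 h, 4 of 8 were called higher and 0 lower, where 16.5% of all genes were called, 8.92% higher and 7.63% lower. The genes called were Casp1 (0.97 ± 0.07 on the log2 scale, adjusted p = 1.29e-11), Gsdmd (0.68 ± 0.08, adjusted p = 7.38e-08), Mlkl (1.60 ± 0.30, adjusted p = 0.000219) and Casp4 (1.00 ± 0.26, adjusted p = 0.00725), all by edgeR. The libraries did not overlap for these 4 or for Casp8 and Ripk1, 6 of the 8, as for 30.3% of all genes. Ripk1 stood just outside at 0.14 ± 0.05 (edgeR adjusted p = 0.0509), and it passed with DESeq2 (adjusted p = 0.0443) or without the third 6 h library (adjusted p = 0.0346). Without that library the differences were 0.99 for Casp1, 1.17 for Casp4, 0.75 for Gsdmd and 1.58 for Mlkl, all called, and 0 of 8 genes were called for 6 h against unstimulated or 1 h cells. Against 1 h, 6 of 8 were called higher and 0 lower, where 18.9% of all genes were called, 10.2% higher and 8.78% lower. These 6 did not overlap between the groups, as for 35.5% of all genes. Mlkl had the largest difference, 2.46 ± 0.32 on the log2 scale, followed by Casp4 at 1.33 ± 0.26, Casp1 at 1.00 ± 0.07 and Gsdmd at 0.73 ± 0.08. Casp8 (0.18 ± 0.05, edgeR adjusted p = 0.00621) and Ripk1 (0.18 ± 0.05, edgeR adjusted p = 0.0108) were also higher than after 1 h. The Ripk1 call was lost without the third 1 h library (adjusted p = 0.111). Casp9 was not called in either, at -0.08 ± 0.06 against both 6 h and 1 h. Between 6 h and 1 h edgeR and DESeq2 called 0 of 8, edgeR calling 0.0979% of all genes (0.0839% higher and 0.014% lower). Mlkl alone had an unadjusted p under 0.05, at 0.86 ± 0.34 on the log2 scale (edgeR adjusted p = 0.862). These comparisons share groups and are not independent of one another.

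Levels were compared between genes per kb of exon, from the combined exons of each gene in GENCODE M21, which can be longer than the transcripts this line makes. In unstimulated cells Casp8 was the highest at 23.4 ± 0.539 CPM per kb, followed by Casp1 at 13.3 ± 1.21, Ripk1 at 8.003 ± 0.165, Gsdmd at 7.74 ± 0.455 and Casp9 at 6.95 ± 0.263 CPM per kb (SD, n = 3 each). Of these neighbours only Ripk1 and Gsdmd overlapped between libraries. Mlkl (0.258 ± 0.0945), Ripk3 (0.235 ± 0.111) and Casp4 (0.120 ± 0.0224 CPM per kb) lay far lower and overlapped one neighbour after the other. After 1 h and 6 h the first 5 genes kept this order, without overlap between neighbours. After 24 h Casp1 (27.0 ± 1.99 CPM per kb) and Casp8 (25.2 ± 0.921) overlapped at the top. Gsdmd (11.9 ± 1.16 CPM per kb) then lay above Ripk1 (9.08 ± 0.156), and Mlkl (0.837 ± 0.0602), Casp4 (0.447 ± 0.0730) and Ripk3 (0.229 ± 0.0533) no longer overlapped.

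**Figure D3:**
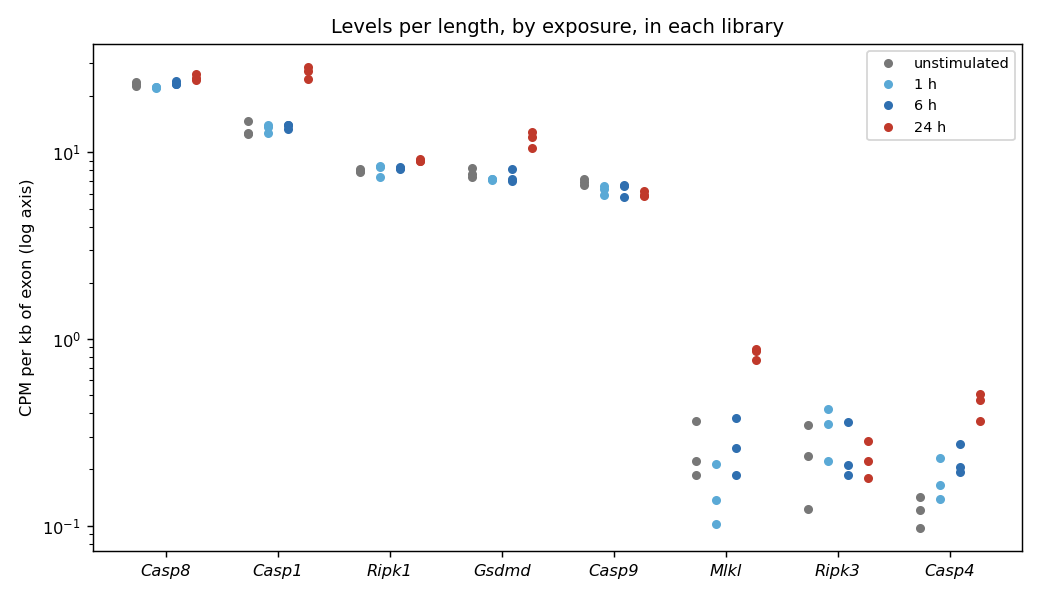
Level of each gene per kb of exon (CPM per kb, log axis) in every library, coloured by exposure, with genes ordered by their mean in unstimulated cells. Casp8, Casp1, Ripk1, Gsdmd and Casp9 lie above 5 CPM per kb in every library, and Mlkl, Ripk3 and Casp4 below 1.

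Partner genes of these 8 were taken from 4 lists, and counts are against the 10.3% of genes called higher and 8.35% called lower at 24 h. Of 16 inflammasome genes 11 were tested, of which 2 rose and 1 fell. Pycard, which encodes the adaptor that joins sensors to caspase-1, had 106 counts over the 24 h libraries and 38 over the unstimulated libraries (0.581 ± 0.0741 and 0.230 ± 0.0815 CPM, log2 fold change 1.33 ± 0.43, edgeR adjusted p = 0.0286). Naip6, one of the NAIP sensor genes, rose by 0.24 ± 0.08 on the log2 scale, and Nlrc4, the partner of NAIP sensors, fell by 0.20 (SE 0.07), at edgeR adjusted p = 0.0434 and 0.0464. Naip reads can be split between close relatives, so the value of the single gene is uncertain. These 3 calls were fragile. For Pycard the adjusted p was 0.137 and 0.0566 when the first or the second unstimulated library was left out, and 0.0647 and 0.0861 for the first or the third 24 h library. For Naip6 it was 0.238 and 0.188 when the first or the third unstimulated library was left out, and 0.0977 and 0.156 for the first or the second 24 h library. The Nlrc4 call did not survive the removal of any of the 6 libraries compared (adjusted p = 0.0756 to 0.139). The DNA sensor Aim2 was not called at 0.09 ± 0.06, and the caspase-1 substrates Il1b and Il18 had 2 and 20 counts over the 24 h libraries, against 6 and 4 over the unstimulated libraries, and were not tested. Of 9 other gasdermin genes 1 was tested, Gsdmc4, with 10 counts over the 24 h libraries and 17 over the unstimulated libraries, and the remaining ones had 0 counts in these groups.

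Of 11 genes of the apoptosome and the inhibitors of apoptosis, all tested, 2 rose and 0 fell. These were the ubiquitin ligases Birc3 (53.6 ± 1.75 CPM in 24 h cells and 41.3 ± 0.838 CPM in unstimulated cells, log2 fold change 0.38 ± 0.05, edgeR adjusted p = 2.49e-06) and Birc2 (0.28 ± 0.06, edgeR adjusted p = 0.000402), which attach ubiquitin to RIPK1. Apaf1, the scaffold on which caspase-9 is activated, stood at -0.02 ± 0.05. Of 20 ripoptosome and necrosome partners 18 were tested, of which 7 rose and 2 fell. Zbp1, a nucleic acid sensor that binds RIPK3, had 637 counts over the 24 h libraries and 6 over the unstimulated libraries (3.55 ± 0.407 and 0.0367 ± 0.00311 CPM, edgeR adjusted p = 1.69e-08). Cflar, which encodes the caspase-8 inhibitor cFLIP, had 32.1 ± 1.49 CPM in 24 h cells and 20.7 ± 0.859 CPM in unstimulated cells (log2 fold change 0.64 ± 0.07, edgeR adjusted p = 4.17e-08). Named after their values were seen, the 3 subunits of the linear ubiquitin ligase also rose, Rnf31 by 0.62 ± 0.07, Rbck1 by 0.30 ± 0.04 and Sharpin by 0.26 ± 0.06. So did the deubiquitinase Cyld at 0.41 ± 0.05 and the kinase gene Mapkapk2 at 0.16 ± 0.05, while Traf2 fell by 0.32 (SE 0.07) and Otulin, which removes linear ubiquitin, by 0.21 (SE 0.06), all on the log2 scale. The calls for Mapkapk2 and Otulin depended on single libraries. Mapkapk2 lost its call with the first or the third unstimulated library removed (adjusted p = 0.12 and 0.0509) and with the first or the second 24 h library removed (0.0832 and 0.0837). Otulin lost it with the third unstimulated library (0.0563) or the second 24 h library (0.0617) removed. The adaptor Fadd was not called, at -0.02 ± 0.10. After 1 h and 6 h, 0 genes of the 4 lists were called by edgeR, where 0.42% and 1.59% of all genes were called. The median log2 fold change at 24 h was 0.09 over the inflammasome genes, 0.01 over the apoptosome genes and 0.01 over the ripoptosome partners, against -0.0028 over all genes tested.

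**Figure D4:**
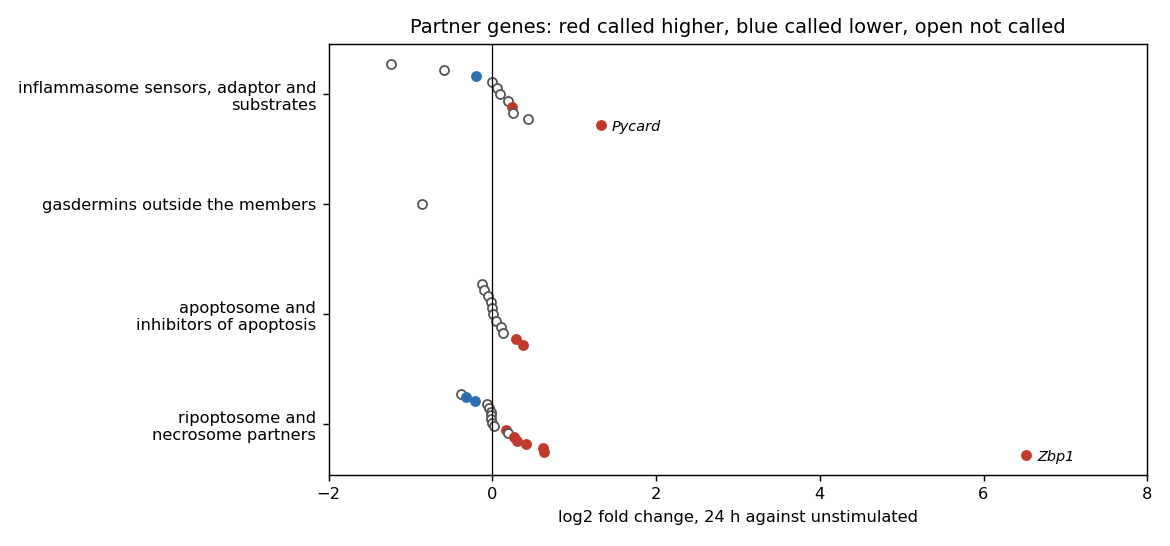
Log2 fold change after 24 h against unstimulated cells for each tested gene of the 4 partner lists; red points were called higher, blue called lower and open points were not called. Zbp1 stands apart at 6.52, and Pycard is the other called gene above 1.

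For each gene called at 24 h, the tested genes with the most similar profile were taken, leaving out those without a symbol or with a predicted-gene, Rik or clone-type name. Similarity was measured by the smallest root mean squared difference in centred log2 CPM over the 12 libraries. For Casp1 the nearest genes were H2-Ab1, Trim30a and Sp110 (0.0882, 0.0919 and 0.0920, where the median over the genes compared was 0.456). For Casp4 they were Col27a1, H2-D1 and H2-T10 (0.193, 0.226 and 0.245, median 0.714) and for Gsdmd Mrpl35, Ctss and Spn (0.0687, 0.0802 and 0.0827, median 0.327). For Mlkl they were Irf9, Tnfrsf14 and Tlr6 (0.354, 0.374 and 0.387, median 0.957). Ripk1 was nearest to Gopc, Cmpk1 and Prpf38a (0.0360 to 0.0375, median 0.139) and Casp9 to Nacc1, Git1 and Fbxo31 (0.0342 to 0.0412, median 0.149). The differences of Mlkl and Casp4 from their nearest genes were larger than those of the other genes, and so were their medians over the genes compared.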

How the data were processed

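The deposited values are raw counts, in 1 table of genes by 12 libraries. The mm10 build, featureCounts 1.4.3-p1, Picard and STAR 2.5.2a appear in the submitters' processing notes. Neither annotation release nor strand setting is given in those notes or the labels. Its header doubles some separators, so its 12 names were read with repeats collapsed and matched to sample titles. Per the labels' protocols, libraries were stranded and read from both ends over 125 bp. Between 69.9% and 73.9% of counts from 1 to 20 were even in each library, so read pairs mostly add 2 counts. A symbol was found for 53274 of 53379 identifiers. GENCODE M21 (GRCm38, the mm10 assembly) gave coordinates and exon lengths; 7 of 8 members had its identifier version.

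Counts were filtered with filterByExpr by group, TMM-scaled and fitted in 1 model of 4 groups (edgeR 4.0.16 under R 4.3.3) by the quasi-likelihood method with robust dispersions, with Benjamini-Hochberg adjustment. Standard errors are the log2 fold change over the square root of F. Members, partner lists, tests and naming rules were chosen with earlier results of these data known. All 8 members are named; from each list, the 2 called genes with the largest change at 24 h, or all when at most 5 were called. Other named genes were chosen after their values were seen. One further partner list and some cell type markers are not reported here. DESeq2 was 1.42.0. Chi-square over degrees of freedom was 2.41 to 7.87 for library pairs within groups, on halved counts, so none was treated as a repeat. Alternatives were other normalisations, filters, sample sets, thresholds and trend corrections, a replicate block, DESeq2, and leaving out each library. Protein sequences were not used here. The models were tested on simulated data.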

Additional observations from a re-analysis of the deposited data

Results flagged for a closer look

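Levels after a 24 h exposure differed from those after a shorter, blocked exposure by a direct test (edgeR, adjusted p under 0.05 over all genes). This held for 4 genes against 6 h, where 16.5% of all genes were called, and for 6 genes against 1 h, where 18.9% were called. The labels leave out whether 24 h cells received antibody, so exposure and antibody cannot be told apart in these comparisons. Against 6 h the log2 differences were 0.97 for Casp1, 1.00 for Casp4, 0.68 for Gsdmd and 1.60 for Mlkl. Against 1 h they were 1.00 for Casp1, 1.33 for Casp4, 0.18 for Casp8, 0.73 for Gsdmd, 2.46 for Mlkl and 0.18 for Ripk1. The Ripk1 call was lost without the third 1 h library (edgeR adjusted p = 0.111). Casp8 was not called against unstimulated cells at 24 h or 1 h (edgeR adjusted p = 0.108 and 0.681). Groups of 3 samples were too small for a test of single outlying samples.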

How the results depend on the processing

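The count of members called higher after 24 h against unstimulated cells was 5 in each alternative run, and the count called lower, which is Casp9, was 0 with an adjusted p under 0.01 and ranged from 0 to 1 when 1 library was left out. Other member counts in the 6 comparisons kept within 1.5 times their value. Samples with the same replicate number shared little deviation (correlations between -0.0656 and 0.0618 across genes), which cannot show whether they were paired. With a replicate block the log2 change of Casp9 at 24 h remained called, and Ripk1 against 6 h passed (0.14, adjusted p = 0.0475, against 0.0509 without the block). Ripk1 against 6 h passed in 8 of the 16 alternatives, and the cause was not tested. In the partner lists at 24 h, the inflammasome count ran from 0 to 2 higher when 1 library was left out. Nlrc4, the 1 gene of that list called lower, lost its call in each of those 6 runs. The inflammasome count was 0 higher and 0 lower at an adjusted p under 0.01. It was 1 higher at a minimum of 1 CPM, with only the 6 libraries compared or with the GC content trend removed, and 0 lower without a filter. The ripoptosome count ran from 1 to 2 lower when 1 library was left out, and the apoptosome count was 1 lower with the exon length trend removed. Counts over all genes moved more. With DESeq2 they were 374 (6 h against unstimulated), 128 (1 h against unstimulated) and 34 (6 h against 1 h), in place of 228, 60 and 14. Without a filter they were 413, 174 and 36, and with only the 6 libraries compared 95, 104 and 9. At an adjusted p under 0.01 they were 80, 21 and 8, and 1562, 1403 and 1650 genes for 24 h against unstimulated, 6 h and 1 h, in place of 2667, 2366 and 2707. When 1 library was left out they ran from 89 (without unstimulated replicate 1) to 531 (without 6 h replicate 3) for 6 h, 15 to 114 for 1 h and 8 to 24 for 6 h against 1 h. Ripk3 could not be tested at a minimum of 1 CPM. Counts of 14 to 126 per library for Casp4, Mlkl and Ripk3 limit what could be detected.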
